A study of Mus musculus with 12 samples.

Results

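The 36 genes described here encode the steps of glycolysis, with the glycogen enzymes that feed it and the oxygen-sensing genes that are known to act on it. They were taken by name: 4 genes of oxygen sensing, 5 of glucose entry, 6 of the phosphofructokinase steps, 8 of the triose steps, 6 of lactate and pyruvate handling, 4 other targets of the hypoxia response and 3 of glycogen. The list was chosen with earlier results of these data known, so its counts beside those of all rows are description only. All 36 were among the 13935 rows of the deposited table and all 36 had a mean of at least 10 over all libraries, as did 13915 rows in all. RNA sequencing was done on bone marrow neutrophils taken from mouse femurs and sorted as CD11b+Ly6G+ cells. Cells labelled Socs3fl/fl, called floxed below, and cells labelled LysMcre Socs3fl/fl, called LysMcre-labelled below, were each kept for 8 h in RPMI with serum, without or with mouse recombinant G-CSF at 10 ng/ml, which gave 4 groups of 3 libraries. All 4 groups carry the floxed Socs3 alleles and all were cultured after the sort, so the floxed cells are neither wild type nor fresh. Socs3 encodes an inhibitor of signalling by the G-CSF receptor, and the LysMcre allele places a Cre recombinase in the lysozyme 2 locus, which is active in neutrophils, monocytes and macrophages. The 3 LysMcre-labelled G-CSF libraries have titles that name LysMcre, G-CSF and also untreated; they were placed by their description, and their genotype and condition labels name the same group. The labels give no age, sex or number of mice and leave unsaid whether replicate libraries stem from different animals; p-values here thus measure library-to-library spread, part or all of which may be technical.

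Glycolysis splits glucose into pyruvate and yields ATP without oxygen. Neutrophils hold few mitochondria, rely on this route for most of their ATP and store glycogen as a reserve of glucose. In cells with enough oxygen the prolyl hydroxylases mark HIF alpha subunits for destruction through the VHL protein; when hydroxylation falls, HIF-1 accumulates and binds short promoter elements of genes for glucose uptake, glycolytic enzymes and lactate export. G-CSF is the cytokine that drives the production of neutrophils and their release from marrow.

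Libraries held 19495754 to 26472118 recovered reads. Levels below are in the deposited unit, normalized counts, of which 3 reads make 2.57 to 3.54. Untreated, the mean of Socs3 was 225 ± 23.1 (SD, n = 3; floxed) and 292 ± 34.5 (LysMcre-labelled), and 19504 ± 1635 and 37335 ± 1219 with G-CSF; a count over the whole gene does not separate the floxed part, so it does not check the deletion. Lyz2, whose locus holds the Cre, was at 6053 ± 493 in LysMcre-labelled against 222590 ± 3235 in floxed untreated libraries. The 10 neutrophil markers (Ly6g, Itgam, Ptprc, Csf3r, Cxcr2, S100a8, S100a9, Mmp8, Camp and Ltf) were all in the table and made up 6.28 to 7.74% of the counts of a library. None of the 9 marker lists of other cells passed 0.104% of a library's counts, the highest being the monocyte list; markers not analysed here include Ncr1, Klf1 and Xcr1. In bulk samples of this kind, fewer cells of a type and less RNA per cell cannot be told apart.

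The 36 genes together held 1.62% ± 0.012 (SD, n = 3) of all normalized counts in floxed untreated libraries and 1.64% ± 0.026 in LysMcre-labelled ones. With G-CSF the share was 1.73% ± 0.052 in floxed and 1.84% ± 0.014 in LysMcre-labelled libraries. Per kilobase of exon, the scale on which genes are compared with each other here, pyruvate kinase (Pkm) stood first in all 4 groups, at 10717 ± 226 normalized counts per kilobase in floxed untreated and 20992 ± 359 in LysMcre-labelled G-CSF libraries. In untreated floxed libraries Aldoa, Pygl, Gpi1 and Gapdh followed, at 9294 ± 369.7, 7828 ± 249, 6828 ± 152 and 6618 ± 337 per kilobase, and the last pair did not differ beyond the spread between libraries. With the longest transcript as the length, in place of all exons, Pkm was again first in all 4 groups, but in untreated floxed libraries Eno1 (11663 per kilobase) came before Gapdh (8316), and Gpi1 (13789) was above both. Between floxed untreated and LysMcre-labelled G-CSF libraries the glucose transporter Slc2a1 went from position 28 of 36 to position 6, Hif1a from 22 to 11 and Gpi1 from 4 to 14. By the longest transcript these positions were 27 and 8 for Slc2a1, 22 and 11 for Hif1a and 4 and 10 for Gpi1.

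Without G-CSF none of the 36 genes passed an adjusted p of 0.05 between the genotypes in limma. Among all rows tested, 0.0647% were called higher and 0.0503% lower in LysMcre-labelled than in floxed untreated libraries. Differences of the 36 genes ran from -0.78 to 0.31 on the log2 scale, with a median of -0.03 beside -0.01 over all rows. Only Pdk1 (log2 difference 0.31, SE 0.14) and Ankrd37 (-0.78, SE 0.23) had an unadjusted p under 0.05, and edgeR and DESeq2 also called 0 of the 36.

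With G-CSF 30 of the 36 genes differed between the genotypes. Of these, 21 were higher in LysMcre-labelled libraries, beside 17.1% of all rows called higher, and 9 were lower, beside 18.9% of all rows. The median log2 difference was 0.32 over the 36 genes and -0.01 over all rows. By role, the calls were 3 higher of 4 in oxygen sensing, 2 higher and 3 lower of 5 in glucose entry, 3 higher and 1 lower of 6 in the phosphofructokinase steps, 7 higher of 8 in the triose steps, 3 higher and 1 lower of 6 in lactate and pyruvate handling, 3 higher and 1 lower of 4 in the other hypoxia targets, and 3 lower of 3 in glycogen. The libraries of these groups also did not overlap in the summed level of 5 of the 9 marker lists of other cells. Between the untreated genotypes this held for 2 of the 9, the T and NK cell and the dendritic cell list. The progenitor list (Kit, Cd34, Flt3 and Myb) summed to 4188 to 4455 normalized counts in floxed and 7279 to 7671 in LysMcre-labelled G-CSF libraries, and the stroma and endothelium list (Cdh5, Col1a1, Pecam1 and Cxcl12) to 756 to 792 and 1327 to 1506. The monocyte list summed to 15259 to 18654 in floxed and 12345 to 15133 in LysMcre-labelled G-CSF libraries, the T and NK cell list to 136.5 to 178 and 105 to 125, and the erythroid list to 173 to 266 and 125 to 163. At their highest the progenitor and stroma lists held 0.0310% and 0.00613% of a library's counts. Members of a list did not all move alike. Between these groups 2 progenitor markers were called higher and 1 lower. Kit had means of 2933 in floxed and 6166 in LysMcre-labelled G-CSF libraries, and Myb of 996 and 795. In the stroma and endothelium list 2 were called higher and 0 lower, with Pecam1 at 701 and 1326. The part of these 5 lists in the differences of the 36 genes was not tested.

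**Figure D1:**
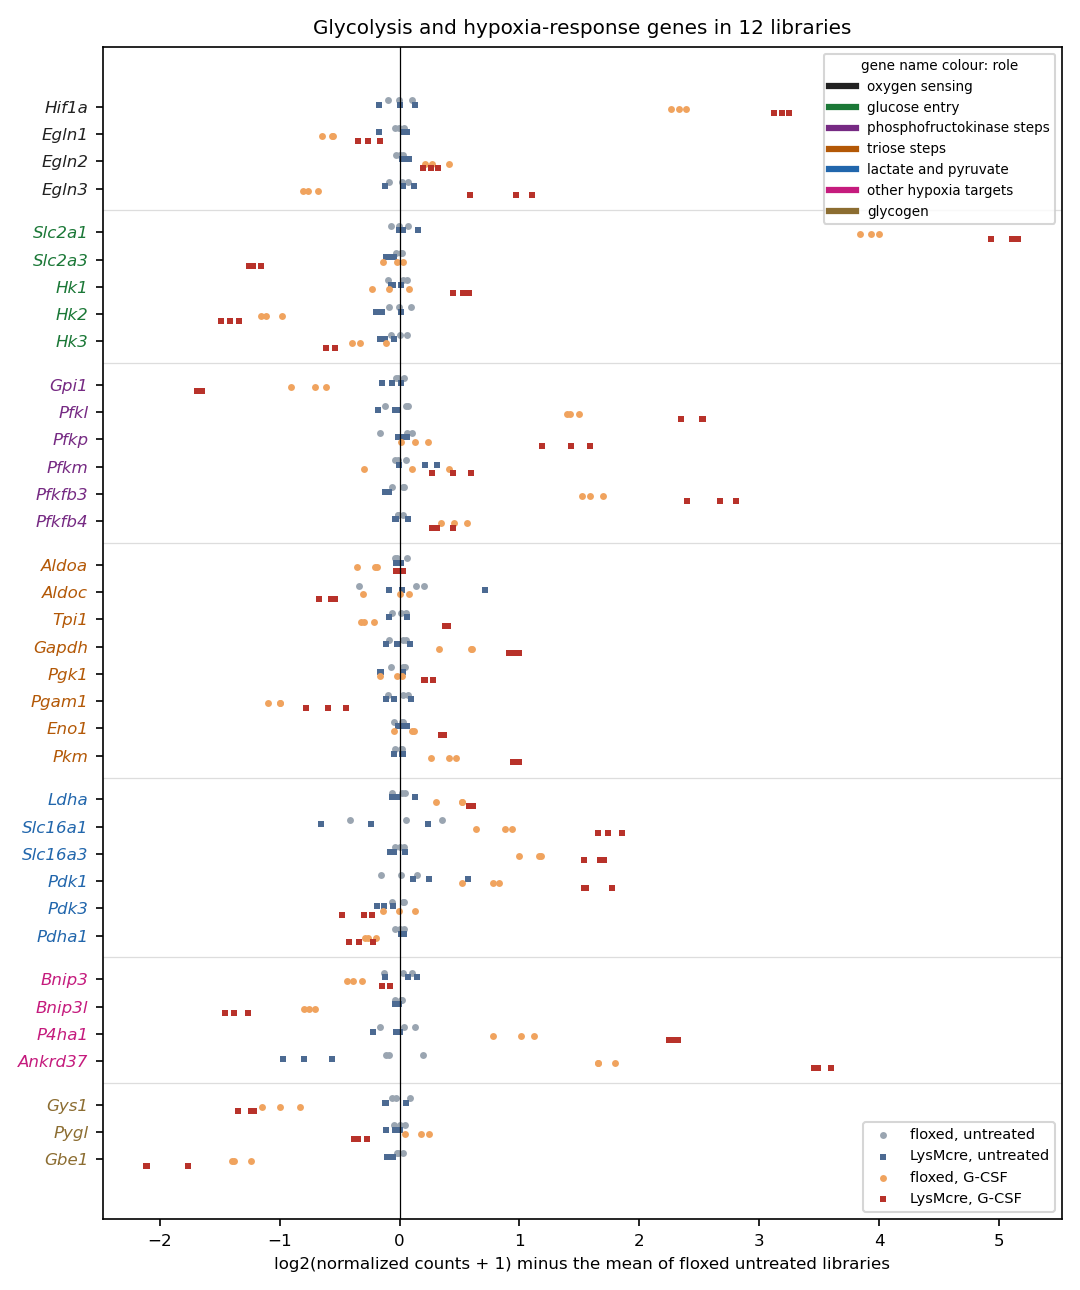
Log2(normalized counts + 1) of each of the 36 genes (rows, ordered and coloured by role) in each of the 12 libraries (points, coloured by group), minus the mean of the 3 floxed untreated libraries (x axis). The untreated libraries lie around 0 for most genes (Ankrd37 is lower in the LysMcre-labelled ones), and Slc2a1, Ankrd37 and Hif1a reach furthest to the right, with their LysMcre-labelled G-CSF libraries beyond the floxed ones.

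G-CSF moved genes of the list in both directions in both genotypes. In floxed libraries 14 of 36 rose, beside 24.1% of all rows, and 13 fell, beside 24.6%, with a median log2 difference of 0.03 (0.00 over all rows). In LysMcre-labelled libraries 20 rose, beside 31.1% of all rows, and 13 fell, beside 31.6%, with a median of 0.33 (0.00 over all rows). As shares of the list these are 38.9 and 36.1% in floxed and 55.6 and 36.1% in LysMcre-labelled libraries, and the last lies near its background. Across the pair of responses, 14 genes rose in both genotypes, beside 21.6% of all rows, and 9 fell in both, beside 22.4%; the 9 lie near their background. Egln3 and Tpi1 fell in floxed and rose in LysMcre-labelled libraries, as did 0.295% of all rows. Marker lists also differed between untreated and G-CSF libraries. In floxed libraries 4 of the 9 lists of other cells did not overlap. The T and NK cell list summed to 315 to 350 normalized counts untreated and 136.5 to 178 with G-CSF, and the monocyte list to 20104 to 21028 and 15259 to 18654. The eosinophil, basophil and mast cell list summed to 1434 to 2146 and 2701 to 3451, and the progenitor list to 2804 to 3009 and 4188 to 4455. In LysMcre-labelled libraries 6 of the 9 did not overlap. There the T and NK cell list summed to 380 to 425 untreated and 105 to 125 with G-CSF, the monocyte list to 19453 to 21375 and 12345 to 15133, and the dendritic cell list to 551 to 623 and 465 to 480. The eosinophil, basophil and mast cell list summed to 1902 to 2772 and 2822 to 2933, the progenitor list to 2770.1 to 2991 and 7279 to 7671, and the stroma and endothelium list to 801 to 920.1 and 1327 to 1506. The neutrophil list summed to 1343765 to 1485606 untreated and 1526423 to 1767070 with G-CSF in floxed, and to 1287681 to 1454477 and 1725303 to 1900583 in LysMcre-labelled libraries. Members of a list did not all move alike here either. In floxed libraries 3 monocyte markers were called higher and 2 lower, with Ly6c2 going from means of 11062 to 4871. In LysMcre-labelled libraries 2 were called higher and 2 lower. In each genotype 5 neutrophil markers were called higher and 4 lower, and 1 progenitor marker higher and 1 lower. For T and NK cells 1 marker was called lower and 0 higher in each. In the stroma and endothelium list 1 was called higher and 1 lower in LysMcre-labelled libraries. There Pecam1 had means of 679 untreated and 1326 with G-CSF, and Col1a1 of 137 and 81.1. The part of these lists in the responses of the 36 genes was not tested.

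The interaction, the response in LysMcre-labelled minus that in floxed libraries, was called for 25 of the 36 genes. It was positive for 20, beside 10.9% of all rows, and negative for 5, beside 11.5%, with a median of 0.31 beside -0.01 over all rows. The negative calls, 13.9% of the list, lie near their background. The comparisons share libraries, so their counts are not independent of each other. All of them rest on the authors' size factors. Scaling every library to equal totals instead lowered the median of all rows by more than 0.1, to -0.13 for the genotypes with G-CSF, -0.26 for G-CSF in LysMcre-labelled libraries and -0.18 for the interaction. The share of higher among all calls then went from 47.5 to 28.2%, from 49.6 to 31.2% and from 48.6 to 23.0%, and for G-CSF in floxed libraries from 49.5 to 38.5%. Under that scaling 18 of the 36 genes were called higher and 12 lower between the genotypes with G-CSF, and 15 and 12 in the interaction. The positive interactions of Egln1, Aldoa, Pgk1, Eno1 and Pdk1 lost their calls there. The interactions of Egln2, Hk2, Hk3, Pfkfb4, Pdk3, Pdha1 and Gys1, below 0 but not called with the authors' size factors, were called negative (-0.39 to -0.26). Of these, Hk3 and Pfkfb4 were also called negative under quantile normalization. Between the genotypes with G-CSF the lost calls were Egln1, Aldoa and Bnip3, and the added ones Egln2, Pfkfb4 and Pdha1 (-0.23 to -0.16). For G-CSF itself it gave 14 higher and 16 lower in floxed and 16 higher and 15 lower in LysMcre-labelled libraries.

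**Figure D2:**
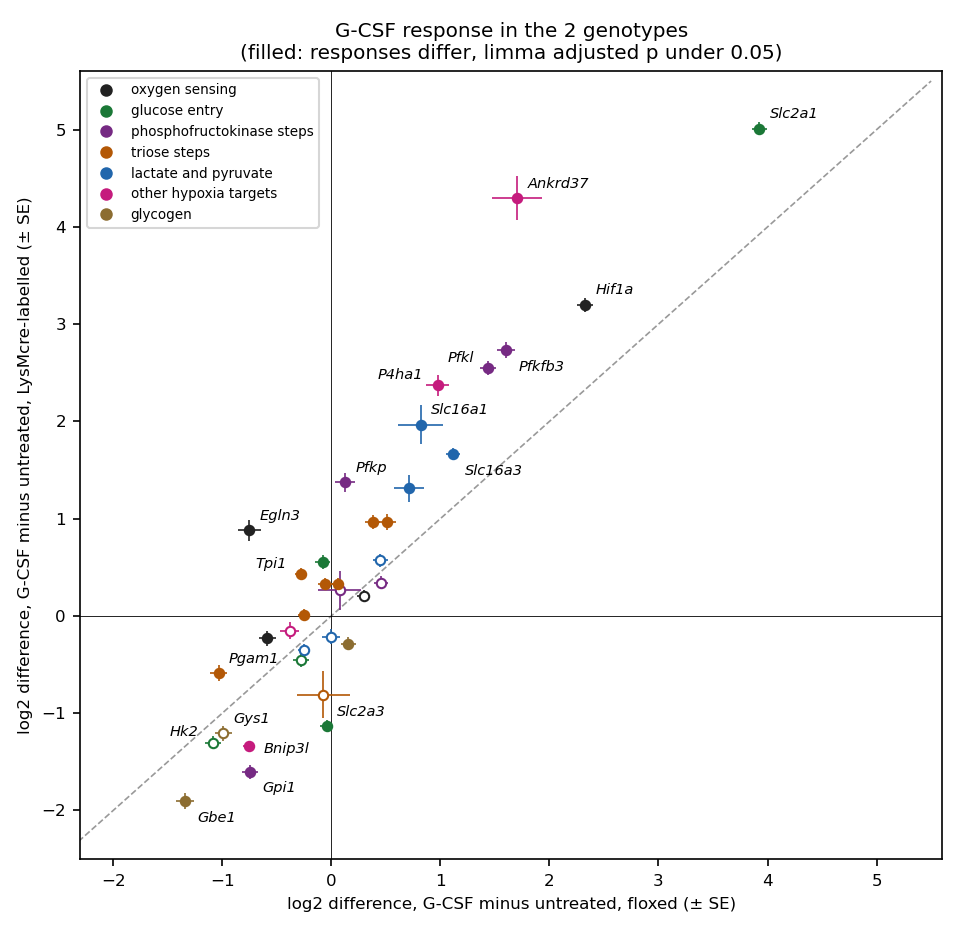
Log2 difference of G-CSF against untreated in floxed (x axis) and LysMcre-labelled (y axis) libraries for the 36 genes, each with its SE from limma and coloured by role; filled points passed an adjusted p of 0.05 in the interaction. Slc2a1 lies at 3.92 and 5.01, Ankrd37 at 1.70 and 4.29, and Egln3 stands in the upper left, with a fall in floxed and a rise in LysMcre-labelled libraries.

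Hif1a (chr12:73901375-73947530, GRCm38) encodes the oxygen-regulated alpha subunit of HIF-1. It had 2090.0, 2224 and 2392 normalized counts in the floxed untreated libraries, 2437, 2243 and 1979 in the LysMcre-labelled untreated ones, 10735, 11675 and 11249 in the floxed G-CSF libraries and 19499.8, 20348 and 21189.8 in the LysMcre-labelled G-CSF libraries. The untreated groups overlapped, and every G-CSF library lay above every untreated one, with all LysMcre-labelled G-CSF libraries above the floxed ones. The log2 rise with G-CSF was 2.33 (SE 0.07, limma adjusted p = 1.2e-12) in floxed and 3.20 (SE 0.07; 9.19-fold) in LysMcre-labelled libraries, and the interaction was 0.87 (SE 0.10, adjusted p = 2.2e-05). These are levels of RNA; HIF-1 is known to be set mainly at the level of its protein, which was not measured here.

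The 3 prolyl hydroxylases, which mark HIF alpha subunits when oxygen is present, differed from each other. Egln3 had 652, 678 and 605 normalized counts in floxed untreated, 657, 702 and 593 in LysMcre-labelled untreated, 378, 401 and 369 in floxed G-CSF and 971, 1266 and 1388 in LysMcre-labelled G-CSF libraries. The floxed G-CSF libraries were the lowest and the LysMcre-labelled G-CSF libraries the highest, with no overlap with the untreated libraries on either side. G-CSF changed Egln3 by -0.75 on the log2 scale (SE 0.11, limma adjusted p = 3e-05) in floxed and by 0.88 (SE 0.11, adjusted p = 3.6e-06) in LysMcre-labelled libraries. The interaction of 1.63 (SE 0.15, adjusted p = 2.8e-06) was the highest of the list after that of Ankrd37. Egln1 fell with G-CSF in floxed libraries (-0.59) and less in LysMcre-labelled ones (-0.23), a smaller fall that lost its call without LysMcre-labelled untreated replicate 1 or 2 (-0.20 and -0.19) or LysMcre-labelled G-CSF replicate 2 (-0.18). Its interaction of 0.36 lost its call without any one of 5 libraries (0.28 to 0.36) and under equal totals (0.19). Equal totals also ended its genotype call with G-CSF (0.21 against 0.33), and gave -0.49 for its fall in LysMcre-labelled libraries. Egln2 rose in both (0.30 and 0.20) and its interaction of -0.09 was not called. Its rise in LysMcre-labelled libraries turned to -0.06 under equal totals. Of the family's summed level per kilobase, Egln2 held 57.4% ± 0.61 (SD, n = 3) in floxed untreated, 72.6% ± 1.35 in floxed G-CSF and 53.0% ± 2.94 in LysMcre-labelled G-CSF libraries, and Egln3 held 24.6% ± 0.70, 15.0% ± 0.98 and 35.3% ± 4.29.

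The hypoxia response element that HIF-1 binds has the core ACGTG or GCGTG. Promoter windows of 300 bases (250 before and 50 after the start) were taken from RefSeq for GRCm38.p6 and searched on both strands; the letters CACGTG hold ACGTG on both strands at overlapping positions, and CACGCGTG holds GCGTG on both. Of the 36 genes, 34 matched an entry (not Slc2a3 or Bnip3l). A core was found for 30 of the 34 (88.2%), beside 66.5% of the 9538 tested genes with an entry and 46.7% of all 27025 genes in the table. With ACGTG alone the counts were 24 of 34 (70.6%), 29.1% and 21.8%. The 4 without a core were Gpi1, Tpi1, Gys1 and Gbe1. Egln1, Hk2, Hk3, Pgam1 and Pdha1, which fell with G-CSF in both genotypes, hold a core. Several of the 36 genes are textbook targets of HIF-1 and were listed for that reason, so the shares describe the list and support nothing further. The 120 bases before the start are printed for 4 genes that rose with G-CSF in both genotypes and rose more in LysMcre-labelled libraries, and for Gpi1, which fell in both and holds no core; capitals mark a core on either strand, so CACGT and CACGC are cores read on the other strand.
Slc2a1, chr4:119108625-119108744, plus strand: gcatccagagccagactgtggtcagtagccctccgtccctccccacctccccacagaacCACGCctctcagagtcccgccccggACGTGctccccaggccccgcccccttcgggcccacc
Pfkfb3, the upstream one of its windows, chr2:11553930-11554049, minus strand: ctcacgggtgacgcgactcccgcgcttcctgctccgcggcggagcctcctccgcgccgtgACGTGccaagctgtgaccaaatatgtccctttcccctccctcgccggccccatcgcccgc
P4ha1, chr10:59323176-59323295, plus strand: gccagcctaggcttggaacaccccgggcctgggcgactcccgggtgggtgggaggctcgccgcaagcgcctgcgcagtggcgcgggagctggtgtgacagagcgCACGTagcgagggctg
Ankrd37, chr8:45999851-45999970, minus strand: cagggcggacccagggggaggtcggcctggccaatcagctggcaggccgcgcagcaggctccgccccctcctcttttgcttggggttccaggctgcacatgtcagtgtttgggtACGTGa
Gpi1, chr7:34230337-34230456, minus strand: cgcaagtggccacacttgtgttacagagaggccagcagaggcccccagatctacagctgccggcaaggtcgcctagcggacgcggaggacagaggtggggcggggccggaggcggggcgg
The whole window of Slc2a1 holds 2 cores, the nearer one beginning 36 bases before the start. The windows of P4ha1 and Ankrd37 hold 3 and 4. For Pfkfb3 the upstream window holds 1 core and another of its windows holds 4. A match is a run of letters and not a bound site, and no binding was measured.

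Slc2a1 (chr4:119108711-119137983) encodes GLUT1 and Slc2a3 (chr6:122727809-122801640) encodes GLUT3, the transporters that bring glucose into the cell. Slc2a1 had 647, 614 and 587 normalized counts in floxed untreated, 613, 684 and 629 in LysMcre-labelled untreated, 9855, 9412 and 8845 in floxed G-CSF and 18885, 21246 and 22101 in LysMcre-labelled G-CSF libraries. Slc2a3 had 26932, 27949 and 27667 in floxed untreated, 25484, 26701 and 26020.0 in LysMcre-labelled untreated, 28123, 27134 and 25003 in floxed G-CSF and 12352, 11543 and 11820.5 in LysMcre-labelled G-CSF libraries. Slc2a1 was low in all 6 untreated libraries and highest in the LysMcre-labelled G-CSF libraries, while Slc2a3 overlapped between floxed libraries without and with G-CSF and was lowest in the LysMcre-labelled G-CSF libraries. Slc2a1 rose with G-CSF by 3.92 on the log2 scale (SE 0.07; 15.2-fold) in floxed and by 5.01 (SE 0.07; 32.2-fold) in LysMcre-labelled libraries, with an interaction of 1.09 (limma adjusted p = 1.6e-06). Slc2a3 was not called in floxed libraries (-0.04, SE 0.06, adjusted p = 0.58) and fell in LysMcre-labelled ones (-1.13, SE 0.06), with an interaction of -1.09 (adjusted p = 3.1e-07). In floxed libraries Slc2a3 was called lower under equal totals (-0.13) and under quantile normalization (-0.28). The ratio of Slc2a1 to Slc2a3, each per kilobase of exon, was 0.0463 ± 0.0030 (SD, n = 3) in floxed untreated, 0.0509 ± 0.0018 in LysMcre-labelled untreated, 0.724 ± 0.0071 in floxed G-CSF and 3.61 ± 0.39 in LysMcre-labelled G-CSF libraries. Slc2a1 was the lesser of the pair in each group but the last.

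The hexokinases phosphorylate glucose and keep it in the cell. Hk2 had 3676, 3472 and 3930.1 normalized counts in floxed untreated, 3325, 3213 and 3718 in LysMcre-labelled untreated, 1869, 1650.4 and 1702 in floxed G-CSF and 1309, 1457 and 1386 in LysMcre-labelled G-CSF libraries. All G-CSF libraries lay below all untreated ones, and the G-CSF groups did not overlap each other. Its log2 difference with G-CSF was -1.08 (SE 0.07) in floxed and -1.30 (SE 0.07) in LysMcre-labelled libraries, both called, and its interaction was not called (-0.22, limma adjusted p = 0.14). Hk3, the most abundant of the family per kilobase, fell in both genotypes (-0.28 and -0.46), and by more under quantile normalization (-0.46 and -0.86). Hk1 was not called with G-CSF in floxed libraries (-0.08) and rose in LysMcre-labelled ones (0.56), with an interaction of 0.64 (SE 0.10, adjusted p = 0.00028). Under equal totals these responses were -0.17, called, and 0.30. Of the summed hexokinase level per kilobase, Hk1 held 7.68% ± 0.52 (SD, n = 3) in floxed untreated, 9.09% ± 0.22 in floxed G-CSF and 15.6% ± 0.31 in LysMcre-labelled G-CSF libraries. With the longest transcript as the length these shares were 12.7, 14.9 and 24.5%.

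**Figure D3:**
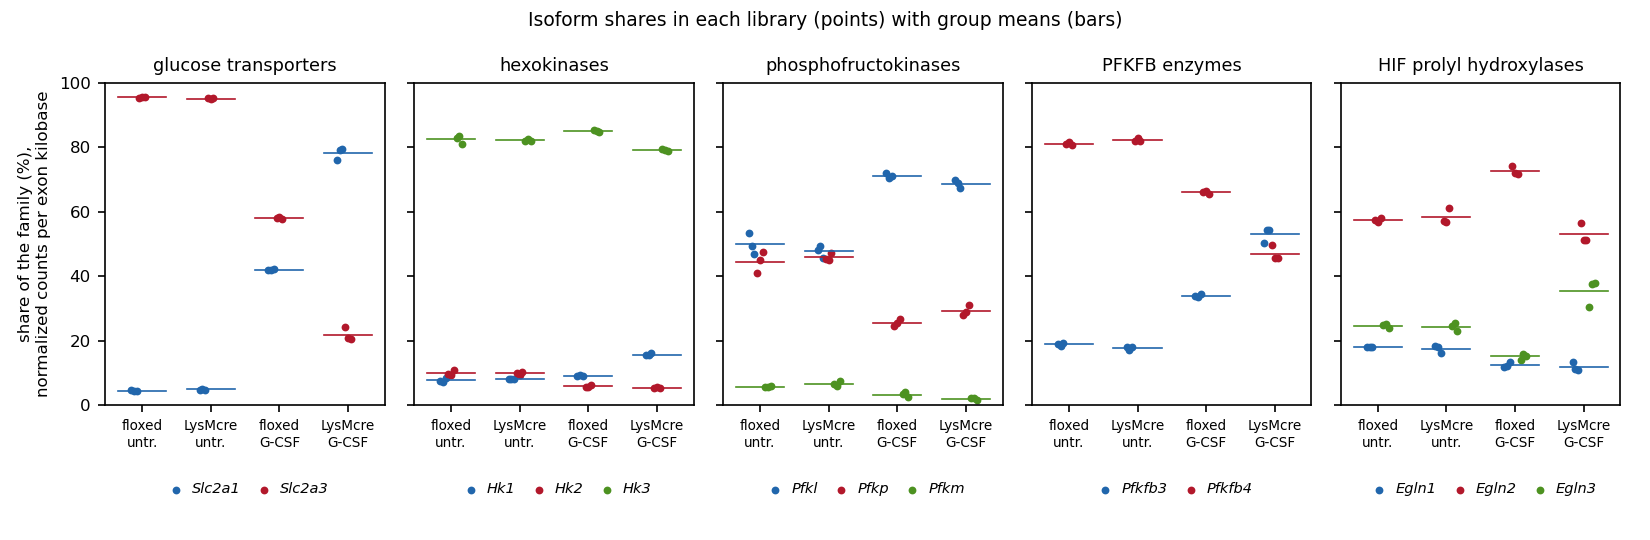
Share (%) of each isoform in the summed level of its family, in normalized counts per kilobase of exon, in each library (points) and as the group mean (bars), for glucose transporters, hexokinases, phosphofructokinases, PFKFB enzymes and HIF prolyl hydroxylases; untr. stands for untreated. The share of Slc2a1 goes from 4.43% in floxed untreated to 42.0% in floxed G-CSF and 78.2% in LysMcre-labelled G-CSF libraries, and that of Pfkfb3 from 18.8 to 33.9 and 53.1%.

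Gpi1 (chr7:34201330-34230336) encodes the isomerase between hexokinase and phosphofructokinase. Its level was 45158, 43269 and 43745 normalized counts in floxed untreated, 39825, 42267 and 44351 in LysMcre-labelled untreated, 28723, 26978 and 23490.3 in floxed G-CSF and 13668, 13946 and 14036 in LysMcre-labelled G-CSF libraries. The LysMcre-labelled G-CSF libraries were the lowest and overlapped with no other group. Gpi1 fell with G-CSF, with a log2 difference of -0.74 (SE 0.07) in floxed and -1.60 (SE 0.07) in LysMcre-labelled libraries, and the interaction was -0.86 (limma adjusted p = 2.1e-05).

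Phosphofructokinase catalyses the committed step of glycolysis, with a liver (Pfkl), a platelet (Pfkp) and a muscle (Pfkm) isoform. Pfkl had 678, 687 and 600.4 normalized counts in floxed untreated, 645, 636 and 578 in LysMcre-labelled untreated, 1726, 1757 and 1843 in floxed G-CSF and 3329.7, 3767 and 3794 in LysMcre-labelled G-CSF libraries. Pfkp had 1047, 1257 and 1223 in floxed untreated, 1223, 1163 and 1201 in LysMcre-labelled untreated, 1179.7, 1277 and 1384 in floxed G-CSF and 2671, 3157 and 3528 in LysMcre-labelled G-CSF libraries. Pfkl was higher in every G-CSF library than in any untreated one, while Pfkp overlapped between the 3 groups other than LysMcre-labelled G-CSF; replicate 1 was the lowest of the LysMcre-labelled G-CSF libraries for both. Pfkl rose by 1.44 (SE 0.07) on the log2 scale in floxed and by 2.55 (SE 0.07) in LysMcre-labelled libraries, with an interaction of 1.11 (limma adjusted p = 1.9e-06). Pfkp was not called in floxed (0.13, SE 0.09) and rose in LysMcre-labelled libraries (1.37, SE 0.09), with an interaction of 1.25 (adjusted p = 8.4e-06). Pfkm, at 30.1 to 56.6 normalized counts per library, was called in no comparison. Of the phosphofructokinase level per kilobase, Pfkl held 49.8% ± 3.27 (SD, n = 3) in floxed untreated, 71.2% ± 0.82 in floxed G-CSF and 68.8% ± 1.37 in LysMcre-labelled G-CSF libraries.

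Pfkfb3 (chr2:11471433-11554077) and Pfkfb4 encode enzymes that make and break down a fructose bisphosphate activator of phosphofructokinase; the Pfkfb3 enzyme is known for its strong bias toward making it. Pfkfb3 had 3213, 2995 and 3185 normalized counts in floxed untreated, 2905, 2945 and 2876 in LysMcre-labelled untreated, 10156, 9391 and 8998 in floxed G-CSF and 16545, 20007 and 21918 in LysMcre-labelled G-CSF libraries. The groups rose in steps without overlap from untreated to floxed G-CSF to LysMcre-labelled G-CSF, and the spread was widest in the last. The rise with G-CSF was 1.60 (SE 0.08; 3.04-fold) in floxed and 2.73 (SE 0.08; 6.65-fold) in LysMcre-labelled libraries, with an interaction of 1.13 (limma adjusted p = 5.6e-06). Pfkfb4 rose in both (0.46 and 0.34) and its interaction of -0.11 was not called. Its rise in LysMcre-labelled libraries was no longer called under equal totals (0.08) and turned to -0.03 under quantile normalization, which gave 0.24 in floxed libraries.

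**Figure D4:**
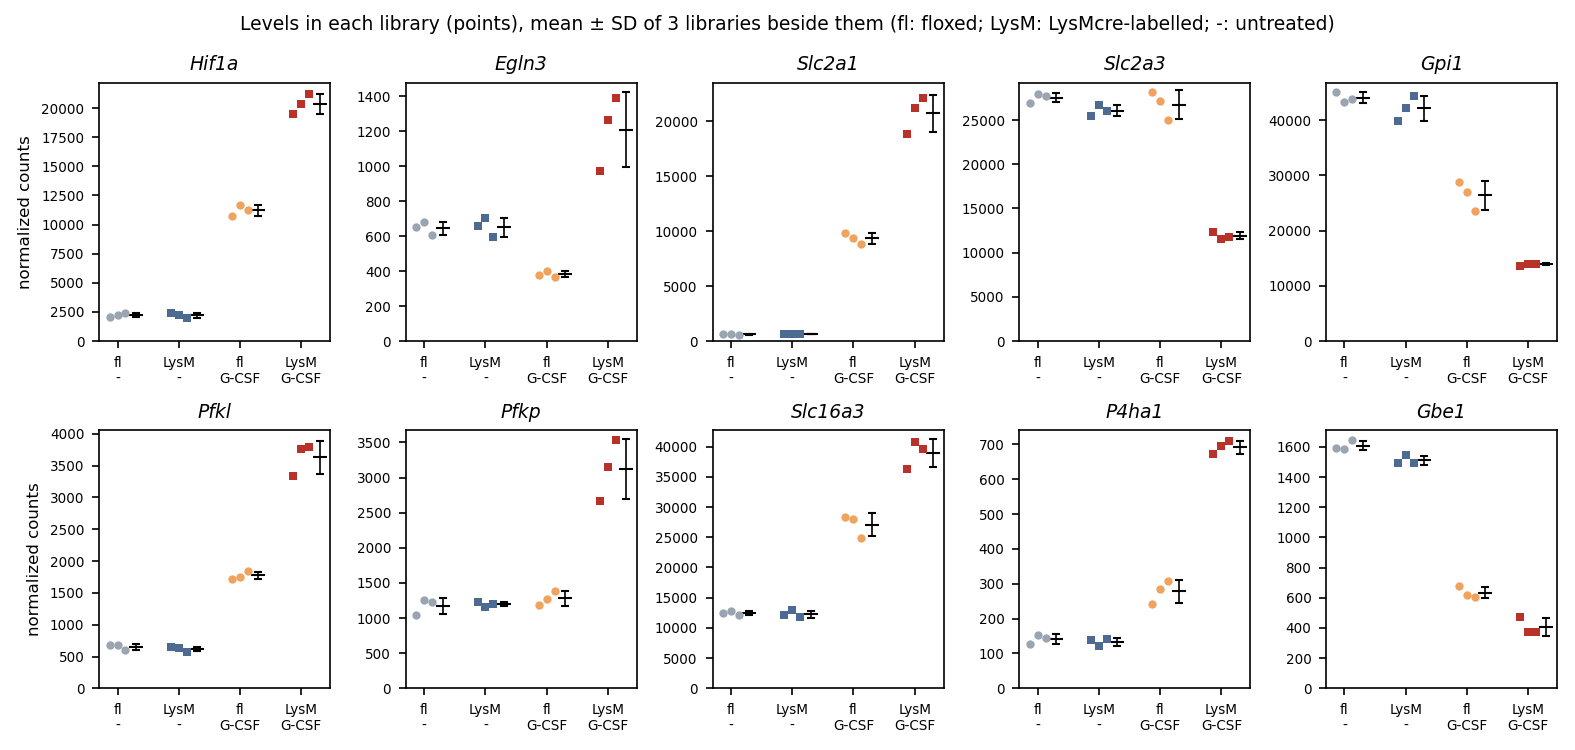
Normalized counts (y axis, linear and starting at 0) in each library (points), with the mean and SD of the 3 libraries beside them, for Hif1a, Egln3, Slc2a1, Slc2a3, Gpi1, Pfkl, Pfkp, Slc16a3, P4ha1 and Gbe1 in the 4 groups (x axis). Hif1a, Slc2a1, Pfkl, Slc16a3 and P4ha1 step upward from untreated to floxed G-CSF to LysMcre-labelled G-CSF libraries, and Slc2a3 is lowest in the LysMcre-labelled G-CSF libraries, between 11543 and 12352.

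The 8 genes of the triose steps cover the route from aldolase (Aldoa, Aldoc) and triose phosphate isomerase (Tpi1) through Gapdh, Pgk1, Pgam1 and Eno1 to pyruvate kinase. In G-CSF libraries 7 of the 8 were higher in LysMcre-labelled than in floxed cells. The differences ran from 0.24 for Aldoa to 0.67 for Tpi1 on the log2 scale, beside 0.28 for Pgk1, 0.30 for Eno1, 0.43 for Pgam1, 0.44 for Gapdh and 0.59 for Pkm. Under equal totals and quantile normalization, in that order, Pgk1 was at 0.17 and 0.18 and Eno1 at 0.18 and 0.11, all called, and Pkm was at 0.34 under the second, also called. Aldoa lost its call under equal totals (0.12) and under quantile normalization (0.11). Aldoc, the brain-type aldolase, had only 21.5 to 57.8 normalized counts per library and was not called (-0.52, limma adjusted p = 0.11).

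The responses of the triose genes to G-CSF itself did not share a direction. Pgam1, phosphoglycerate mutase, had 3239, 2959.7 and 3329.7 normalized counts in floxed untreated, 2937, 3067 and 3397 in LysMcre-labelled untreated, 1586, 1585 and 1480.1 in floxed G-CSF and 1850.4, 2098 and 2322 in LysMcre-labelled G-CSF libraries. It was lower in every G-CSF library than in any untreated one, and lowest in the floxed G-CSF libraries. The fall was -1.03 (SE 0.08) on the log2 scale in floxed and -0.59 (SE 0.08) in LysMcre-labelled libraries, with an interaction of 0.45 (limma adjusted p = 0.0096), which was 0.28 under equal totals and still called. Tpi1 was at 1953 ± 77.1 normalized counts (SD, n = 3) in floxed untreated, 1613 ± 64.1 in floxed G-CSF, 1903 ± 114 in LysMcre-labelled untreated and 2566 ± 28.7 in LysMcre-labelled G-CSF libraries. G-CSF changed it by -0.28 (adjusted p = 0.00071) in floxed and by 0.43 (adjusted p = 5.8e-06) in LysMcre-labelled libraries, where equal totals gave 0.17, still called. Gapdh and Pkm rose in both genotypes, by 0.51 and 0.38 in floxed and by 0.96 and 0.97 in LysMcre-labelled libraries. Under quantile normalization, still called, Gapdh was at 0.23 in floxed and 0.50 in LysMcre-labelled libraries, and Pkm at 0.55 in the latter.

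Pgk1, the first ATP-yielding kinase of the route, and Eno1, enolase, were not called with G-CSF in floxed libraries (-0.05 and 0.06) and were called higher in LysMcre-labelled ones (0.33 and 0.33). Those 2 rises depended on the scaling: they were 0.07 and 0.07 under equal totals, not called, and -0.04 and -0.11 under quantile normalization. In floxed libraries Pgk1 was called lower under equal totals (-0.15) and quantile normalization (-0.27), and Eno1 under the latter (-0.14). Aldoa fell in floxed libraries (-0.25) and was not called in LysMcre-labelled ones (0.01, adjusted p = 0.92), where equal totals gave -0.25 and quantile normalization -0.46, both called; its fall in floxed libraries was then -0.34 and -0.51. Aldoc was not called in floxed (-0.07) and fell in LysMcre-labelled libraries (-0.81), a call lost without LysMcre-labelled untreated replicate 1 (-0.56). The interactions were called positive for 7 of the 8, from 0.26 (Aldoa) to 0.71 (Tpi1). Those of 3 genes lost their calls under both equal totals and quantile normalization: Aldoa fell to 0.09 and 0.05, Pgk1 from 0.38 to 0.21 and 0.23, and Eno1 from 0.27 to 0.11 and 0.03. Under quantile normalization those of Gapdh (0.27 against 0.45) and Pkm (0.27 against 0.59) were smaller but called. That of Aldoa also lost its call without the trended prior and without any one of 9 libraries (0.21 to 0.28), and that of Eno1, at 0.27, without floxed untreated replicate 1 or 3 or LysMcre-labelled untreated replicate 1 (0.25 to 0.26).

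Listed copies of these genes (Aldoart1, Aldoart2, Eno1b, Ldha-ps2, Pgam1-ps1, Pgam1-ps2, Pgk1-rs7 and Bnip3l-ps) had means of 10.0 to 55.5 normalized counts, and reads may have been split between a gene and its copy. Of the 36 genes, 16 share exon bases with another annotated gene and 20 share none. The sources used here do not state how the counting treated strand and shared bases. For the 16, among them Hif1a, Slc2a1, Gpi1, Pfkp, Pkm, Pdha1, Bnip3 and Gys1, the reads of the overlapping gene cannot be told apart.

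Lactate leaves the cell through the monocarboxylate transporters encoded by Slc16a1 (MCT1) and Slc16a3 (MCT4), of which the second is the common exporter of glycolytic cells. Slc16a3 had 12501, 12824 and 12132 normalized counts in floxed untreated, 12075, 12898 and 11829 in LysMcre-labelled untreated, 28328, 27978 and 24867 in floxed G-CSF and 36363, 40785 and 39678 in LysMcre-labelled G-CSF libraries. Slc16a1 had 144, 104 and 177 in floxed untreated, 87.3, 117 and 163 in LysMcre-labelled untreated, 216, 256 and 266 in floxed G-CSF and 463, 502 and 437 in LysMcre-labelled G-CSF libraries. For both genes the untreated groups overlapped, the floxed G-CSF libraries lay above them, and the LysMcre-labelled G-CSF libraries were the highest. Slc16a3 rose by 1.11 (SE 0.07) and 1.67 (SE 0.07) on the log2 scale in the 2 genotypes, with an interaction of 0.55 (limma adjusted p = 0.00049). Quantile normalization lowered that interaction to 0.25, still called. Slc16a1 rose by 0.82 (SE 0.20) and 1.97 (SE 0.20), with an interaction of 1.15 (adjusted p = 0.0093). Per kilobase Slc16a3 held 98.6 to 98.9% of the pair's level in the means of all 4 groups. Ldha, the lactate dehydrogenase subunit that turns pyruvate into lactate, rose in both genotypes (0.45 and 0.57), although quantile normalization lowered these to 0.25 and to 0.13, the second no longer called. It did not differ between genotypes by the test (with G-CSF 0.14, SE 0.07, adjusted p = 0.11).

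The pyruvate dehydrogenase kinases Pdk1 and Pdk3 switch off the complex that sends pyruvate into mitochondria. Pdk1, a low gene, had 101, 111 and 90.3 normalized counts in floxed untreated, 150.4, 119 and 109 in LysMcre-labelled untreated, 145, 173 and 179.8 in floxed G-CSF and 298, 294 and 346 in LysMcre-labelled G-CSF libraries. The LysMcre-labelled G-CSF libraries were the highest with no overlap, while LysMcre-labelled untreated replicate 1 lay above floxed G-CSF replicate 1. Pdk1 rose by 0.71 (SE 0.14) and 1.31 (SE 0.14) on the log2 scale; its interaction of 0.60 (limma adjusted p = 0.038) lost its call without any one of 8 libraries (0.50 to 0.64), with libraries scaled to equal totals (0.43, limma adjusted p = 0.15) and without the trended prior (limma adjusted p = 0.056). Pdk3 was not called in floxed libraries (-0.00) and fell in LysMcre-labelled ones (-0.21), a call lost without LysMcre-labelled untreated replicate 1 or 2 or LysMcre-labelled G-CSF replicate 2 (-0.21 to -0.14) and without the trended prior. Equal totals gave -0.47 there. Pdha1, the catalytic alpha subunit of the complex, fell in both genotypes (-0.25 and -0.35), the second at -0.61 under equal totals and was not called between genotypes except under equal totals.

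P4ha1 (chr10:59323296-59373304) encodes a collagen prolyl hydroxylase subunit and Ankrd37 (chr8:45996902-46005707) an ankyrin repeat protein; both are known HIF-1 targets. P4ha1 had 126, 153 and 144 normalized counts in floxed untreated, 138, 120.3 and 141 in LysMcre-labelled untreated, 243, 285 and 308 in floxed G-CSF and 671, 696 and 709 in LysMcre-labelled G-CSF libraries. Ankrd37 had 9.59, 7.71 and 7.53 in floxed untreated, 5.26, 4.30 and 3.71 in LysMcre-labelled untreated, 28.2, 28.0 and 31.1 in floxed G-CSF and 101, 111 and 103 in LysMcre-labelled G-CSF libraries. Both stepped upward from untreated to floxed G-CSF to LysMcre-labelled G-CSF libraries with no overlap between those steps. P4ha1 rose by 0.98 (SE 0.11) and 2.37 (SE 0.11) on the log2 scale, with an interaction of 1.40 (limma adjusted p = 1e-05). Ankrd37 rose by 1.70 (SE 0.23) and 4.29 (SE 0.23), with an interaction of 2.59 (adjusted p = 3.6e-05). The untreated LysMcre-labelled values of Ankrd37 are worth only 4 to 5 reads a library. It also shares exon bases with Lrp2bp and Ufsp2, at most 349 with either gene. Its folds are thus uncertain.

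Bnip3 and Bnip3l encode mitochondrial proteins that mark mitochondria for removal. Bnip3l had 4386, 4201 and 4355 normalized counts in floxed untreated, 4291, 4213 and 4215 in LysMcre-labelled untreated, 2550.2, 2643 and 2474 in floxed G-CSF and 1799.5, 1572 and 1652 in LysMcre-labelled G-CSF libraries. It went downward in steps, with no overlap between untreated, floxed G-CSF and LysMcre-labelled G-CSF libraries. The log2 difference with G-CSF was -0.76 (SE 0.05) in floxed and -1.34 (SE 0.05) in LysMcre-labelled libraries, with an interaction of -0.59 (limma adjusted p = 5.5e-05). Bnip3 fell in floxed libraries (-0.38), was not called in LysMcre-labelled ones (-0.15; called at -0.41 under equal totals and at -0.23 without LysMcre-labelled untreated replicate 3), and its interaction of 0.23 was not called. Its genotype difference with G-CSF, 0.26, lost its call without floxed G-CSF replicate 2 or 3 or LysMcre-labelled G-CSF replicate 2 (0.23 to 0.25) and under equal totals (0.14).

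All 3 glycogen genes were lower in LysMcre-labelled than in floxed G-CSF libraries: Gys1, glycogen synthase (-0.28), Gbe1, the branching enzyme (-0.65), and Pygl, the phosphorylase that releases glucose units (-0.49). Gys1 had 2416, 2178 and 2227 normalized counts in floxed untreated, 2103, 2084 and 2364 in LysMcre-labelled untreated, 1276, 1138 and 1026 in floxed G-CSF and 893, 978 and 961 in LysMcre-labelled G-CSF libraries. Gbe1 (chr16:70313949-70569716) had 1592, 1589 and 1646 in floxed untreated, 1494, 1547 and 1497 in LysMcre-labelled untreated, 679, 617 and 608 in floxed G-CSF and 473, 372 and 373 in LysMcre-labelled G-CSF libraries. Both were lower in every G-CSF library than in any untreated library, and their LysMcre-labelled G-CSF libraries all lay below the floxed ones. Gys1 changed with G-CSF by -0.99 (SE 0.08) on the log2 scale in floxed and by -1.21 (SE 0.08) in LysMcre-labelled libraries, and its interaction of -0.22 was not called (limma adjusted p = 0.20); its genotype difference lost its call without floxed G-CSF replicate 1 (-0.20). Gbe1 changed by -1.34 (SE 0.08) and by -1.91 (SE 0.08), with an interaction of -0.56 (adjusted p = 0.0025). Pygl, at 53972 ± 1719 normalized counts (SD, n = 3) in floxed untreated libraries, was not called with G-CSF there (0.16) and fell in LysMcre-labelled libraries (-0.28), with an interaction of -0.44 (adjusted p = 0.0039). Under quantile normalization that fall was -0.73 and the interaction -0.70, and DESeq2 called the rise in floxed libraries (0.16).

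Other genes of the same routes were taken from 3 lists, also chosen with earlier results of these data known, so their counts are description only. Of 31 further genes of glycolysis and pyruvate use, 4 were higher and 9 lower in LysMcre-labelled than in floxed G-CSF libraries, with a median log2 difference of -0.10, and the interaction was positive for 3 and negative for 7. As shares of the list these are 12.9 and 29.0% between the genotypes, beside 17.1 and 18.9% of all rows, and 9.68 and 22.6% in the interaction, beside 10.9 and 11.5%; the positive interactions lie near their background and the higher calls below it. Slc16a6, a member of the monocarboxylate transporter family, rose from 1966 to 6810 normalized counts in floxed and from 1928 to 10802 in LysMcre-labelled libraries, with an interaction of 0.69 (SE 0.10, limma adjusted p = 0.00015). Adpgk, which phosphorylates glucose with ADP, fell from 64828 to 26153 and from 59425 to 13463, with an interaction of -0.83 (SE 0.13, adjusted p = 0.00021). Pfkfb2, another enzyme of the Pfkfb3 family, rose by 2.01 in floxed and 1.81 in LysMcre-labelled libraries on the log2 scale.

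Of 28 further genes of the hypoxia response, 10 were higher and 6 lower in LysMcre-labelled than in floxed G-CSF libraries, with a median log2 difference of 0.23, and the interaction was positive for 7 and negative for 4. These are 35.7 and 21.4% of the list, beside 17.1 and 18.9% of all rows, and 25.0 and 14.3%, beside 10.9 and 11.5%; the lower calls and the negative interactions lie near their background. Bhlhe40, a transcription factor and known hypoxia target, had means of 753 and 815 normalized counts without G-CSF and of 1317 in floxed and 8876 in LysMcre-labelled libraries with it, an interaction of 2.63 (SE 0.13, limma adjusted p = 1.1e-08). Mif, a secreted cytokine, had means of 235 and 562 with G-CSF in the same order. Cxcr4, the receptor that holds neutrophils in marrow, fell in both genotypes, from 12348 to 2178 and from 12408 to 1511. Vhl was lower in LysMcre-labelled than in floxed G-CSF libraries (log2 difference -0.25, SE 0.07, limma adjusted p = 0.0080). It fell with G-CSF in both genotypes (-0.63 in floxed and -0.79 in LysMcre-labelled libraries), and its interaction was not called.

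Of 21 further genes of glycogen metabolism, 6 were higher and 5 lower in LysMcre-labelled than in floxed G-CSF libraries, with a median of 0.00, and the interaction was positive for 4 and negative for 4. These are 28.6 and 23.8% of the list, beside 17.1 and 18.9% of all rows, and 19.0 and 19.0%, beside 10.9 and 11.5%; the lower calls lie near their background. Ppp1r3d and Ppp1r3b, subunits that bring a phosphatase to glycogen, rose by 2.74 and 1.62 in floxed and by 3.03 and 2.47 in LysMcre-labelled libraries on the log2 scale. The phosphorylase kinase subunits Phka2, Phkb and Phkg2 were lower in LysMcre-labelled than in floxed G-CSF libraries, with log2 differences of -0.69, -0.61 and -0.59. In untreated libraries no gene of the 3 lists was called between the genotypes.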

How the data were processed

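RNA was sequenced from 12 libraries in 4 groups of 3. The deposited table holds a signal: reads per gene scaled by a size factor for each library (normalized counts). This was read from the values, of which 100.0% gave whole reads at a tolerance of 0.01 read. The submitters' processing notes name the build mm10; which aligner, counter, annotation and strand setting the authors used is not given in the sources used here. Groups came from the labels. For untreated LysMcre-labelled replicate 2 the title's number was taken, where its column has a 3. The design assumed normalized counts; whole reads could be recovered, so edgeR 4.0.16 and DESeq2 1.42.0 were run on them beside limma, which stayed the main test. The lowest row total was 121 reads, and 20 rows with a mean under 10 were left out. On log2(value + 1), limma 3.58.1 (R 4.3.3, trended prior, 8 residual degrees of freedom) fitted all groups together for 5 contrasts, with two-sided p-values, Benjamini-Hochberg adjustment over 13915 rows and a threshold of 0.05; such fold changes understate those of low genes. The script was tested on simulated data. Between the untreated genotypes 54% of 1.5-fold and 80% of 2-fold changes were recovered there, and in the interaction 32 and 58%. Of the genes called, 10.0 and 3.30% were false. Genes that were not called may thus still differ. Positions and exon lengths come from GENCODE M21 (GRCm38), promoters from RefSeq GRCm38.p6. No library repeated another: the chi-square per row between libraries of a group was 3.46 to 12.3, above sampling noise.

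The 36 genes, the 3 further lists and the marker lists were chosen with earlier results of these data known. Every gene of the list was named; values in every library are given for genes with a called log2 difference of at least 1 in size in any contrast and for Hif1a. At most 3 rises and 3 falls were named per further list and contrast. There were 24 alternatives: 12 left out a library, and 12 changed the pseudocount, filter, scaling, model or tool. The value of 3 reads reflects counting only, while SE and SD values come from the spread between libraries.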

Additional observations from a re-analysis of the deposited data

Results flagged for a closer look

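For 25 of the 36 genes the response to G-CSF differed between the genotypes by the interaction term in limma (adjusted p under 0.05), with 3 libraries in each group; the values below are log2 responses in LysMcre-labelled minus floxed libraries. In oxygen sensing they were 0.87 for Hif1a, 0.36 for Egln1 and 1.63 for Egln3. In glucose entry they were 1.09 for Slc2a1, -1.09 for Slc2a3 and 0.64 for Hk1. In the phosphofructokinase steps they were -0.86 for Gpi1, 1.11 for Pfkl, 1.25 for Pfkp and 1.13 for Pfkfb3. In the triose steps they were 0.26 for Aldoa, 0.71 for Tpi1, 0.45 for Gapdh, 0.38 for Pgk1, 0.45 for Pgam1, 0.27 for Eno1 and 0.59 for Pkm. For lactate and pyruvate they were 1.15 for Slc16a1, 0.55 for Slc16a3 and 0.60 for Pdk1. The other hypoxia targets gave -0.59 for Bnip3l, 1.40 for P4ha1 and 2.59 for Ankrd37, and the glycogen genes -0.44 for Pygl and -0.56 for Gbe1. Under equal totals those of Egln1, Aldoa, Pgk1, Eno1 and Pdk1 were not called, and under quantile normalization those of Aldoa, Pgk1 and Eno1 were not.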

How the results depend on the processing

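Of the calls among the 36 genes, 26 of 30 between the genotypes with G-CSF were kept in all 24 alternatives, as were 27 of 27 for G-CSF in floxed libraries, 25 of 33 for G-CSF in LysMcre-labelled libraries and 20 of 25 for the interaction. Of the 10 counts of genes, 1 moved by over 1.5 times: 12 genes had a negative interaction under equal totals, against 5. With G-CSF in LysMcre-labelled libraries equal totals turned Egln2 to -0.058 and Aldoa to -0.25, and quantile normalization turned Pfkfb4 to -0.034, Aldoa to -0.46, Pgk1 to -0.037 and Eno1 to -0.11; in floxed libraries quantile normalization turned Eno1 to -0.14. These are signs under other scalings, and the cause was not tested. Leaving out 1 library gave 16 to 19 positive interactions against 20, and 10 to 14 falls with G-CSF in LysMcre-labelled libraries against 13. Over all groups the replicate numbers showed no common pairing: of 18 pairs of groups and numbers, 4 had deviations correlated over 0.1 (-0.178 to 0.321). Between untreated and G-CSF floxed libraries like numbers gave 0.321, 0.199 and 0.061, and unlike ones -0.282 to 0.152. In LysMcre-labelled libraries like numbers gave 0.214, -0.032 and 0.030, and unlike ones -0.179 to 0.163. Whether libraries are paired within a genotype was not settled, and the number of LysMcre-labelled untreated replicate 2 is in doubt. With the number as a replicate block 17 genes had a positive interaction and 5 a negative one, since Aldoa, Eno1 and Pdk1 were no longer called (limma adjusted p = 0.059, 0.055 and 0.056), and the other 8 counts were as without it. The positive interactions of Egln1 and Pdk1 under equal totals, and of Aldoa, Pgk1 and Eno1 under equal totals and quantile normalization, lost their calls. A mean of at least 100 leaves out Ankrd37, Pfkm and Aldoc, and the fit of only 2 groups cannot give the interaction. Depth limits Ankrd37 most, at 4 to 5 reads in each LysMcre-labelled untreated library.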
